A study of Mus musculus with 24 samples.

Results

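The genes described here are 33 mouse genes of cholesterol and fatty acid synthesis, chosen by name from the 47643 genes of the deposited count files. Of these, 21 belong to the sterol pathway (18 enzymes and the regulators Insig1, Stard4 and Srebf2) and 12 to fatty acid synthesis and handling (Srebf1 and 11 enzymes). The choice was made by gene name, with earlier results of these data known. All 33 had counts and were among the 10563 genes that passed the filter on low counts. The cells were organoids, small three-dimensional cultures grown in Matrigel from cells labelled as salivary gland stem and progenitor cells. Donor glands came from C57BL/6 mice, with no engineered allele named, and had been irradiated (IR) or sham-irradiated 14 or 90 days earlier. Organoids were taken at passage 1 or passage 2. Sham and IR at each day and passage make up 8 groups, each of 3 libraries. All 8 groups were grown in the same DMEM-12 medium with antibiotics, Glutamax, the N2 supplement, dexamethasone, insulin, FGF2, EGF and the ROCK inhibitor Y-27632. The series title names microenvironmental Bmp4 and regeneration of the gland after irradiation. The radiation dose, and the age and sex of the mice, were not stated in the sources used. The labels do not tie replicates to separate mice or cultures. A p-value here is therefore read against the variation among these libraries alone, and that variation may be technical.

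Cells build cholesterol from acetyl-CoA through mevalonate, the isoprenoid farnesyl diphosphate, squalene and lanosterol, and fatty acids from the same acetyl-CoA through malonyl-CoA. The transcription factor SREBP-2, made from Srebf2, switches on the sterol enzymes when membrane sterol is low. SREBP-1, made from Srebf1, acts mainly on the fatty acid enzymes and responds to insulin. Insig1 holds the SREBP proteins in the endoplasmic reticulum when sterol is plentiful and is itself a target of theirs. Proliferating epithelia draw on both pathways for new membrane, and saturated fatty acids are made fluid by the desaturases Scd1 and Scd2.

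The 250 bases before the starts of the genes were searched for motifs of known regulators. Windows were to be printed for Insig1, Hmgcs1, Sqle, Idi1, Fdps and Fasn. No RefSeq window was matched for Sqle and Fdps, so 4 are printed. Sequences are from RefSeq on GRCm38.p6, read 5′ to 3′ on the strand of the gene. Capitals mark matches on either strand to TCACNCCA, the core of a sterol regulatory element bound by SREBP, and to CCAAT, a box bound by NF-Y. Insig1 lies at chr5:28071162-28071411 (plus strand), Hmgcs1 at chr13:119690101-119690350 (plus), Idi1 at chr13:8885356-8885605 (plus) and Fasn at chr11:120824548-120824797 (minus).
Insig1: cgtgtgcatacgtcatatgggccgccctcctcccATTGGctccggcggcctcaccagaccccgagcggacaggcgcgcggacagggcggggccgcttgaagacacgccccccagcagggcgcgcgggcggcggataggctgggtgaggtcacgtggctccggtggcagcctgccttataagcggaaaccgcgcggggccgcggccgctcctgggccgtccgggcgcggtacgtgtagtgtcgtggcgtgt
Hmgcs1: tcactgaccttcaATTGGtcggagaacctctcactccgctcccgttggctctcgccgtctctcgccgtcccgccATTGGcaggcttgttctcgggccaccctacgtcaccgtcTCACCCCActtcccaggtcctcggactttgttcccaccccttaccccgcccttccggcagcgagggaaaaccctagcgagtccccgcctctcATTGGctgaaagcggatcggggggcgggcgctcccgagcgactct
Idi1: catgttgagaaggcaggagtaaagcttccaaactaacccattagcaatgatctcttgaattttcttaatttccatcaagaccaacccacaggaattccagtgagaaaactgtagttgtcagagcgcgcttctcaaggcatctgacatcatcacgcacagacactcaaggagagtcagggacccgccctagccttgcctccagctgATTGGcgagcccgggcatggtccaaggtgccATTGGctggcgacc
Fasn: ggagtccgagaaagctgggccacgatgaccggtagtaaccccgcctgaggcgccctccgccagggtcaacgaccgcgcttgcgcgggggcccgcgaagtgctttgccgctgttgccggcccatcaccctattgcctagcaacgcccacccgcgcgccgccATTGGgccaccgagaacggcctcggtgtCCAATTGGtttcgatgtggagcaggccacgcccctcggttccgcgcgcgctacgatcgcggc

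Hmgcs1 held 1 match to TCACNCCA and 3 CCAAT boxes, while Fasn held 3 CCAAT boxes, Idi1 2 and Insig1 1, with no match to TCACNCCA. RefSeq windows were matched for 26 of the 33 genes, and some genes have several starts, which gave 31 windows. CCAAT was in 71.0% of those windows (80.0% of the 20 sterol windows and 54.5% of the 11 fatty acid windows), against 33.8% of all 32851 promoter windows of the same length. The GC box GGGCGG was in 74.2% of the windows, against 32.7% of all. TCACNCCA was in 9.68%, the windows of Hmgcs1, Msmo1 and Srebf2, against 3.67% of all, and its longer form TCACNCCAC was in the window of Hmgcs1 alone among them (3.23% against 1.05%). The E-box CACGTG was in 16.1% against 6.02%. Each motif was searched on both strands. TCACNCCAC contains TCACNCCA, and a match describes letters only. The set of all windows was not limited to genes with counts here, while all 33 members had counts. The higher shares are therefore not read as a trait of the pathway.

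Gene counts were 1151608 to 3189466 per library (median 2091528.5), and levels are given as CPM, gene counts scaled to a common library size with TMM factors. The libraries were made with a kit that reads the 3′ end of each transcript, so counts do not grow with transcript length. The epithelial markers Epcam, Cdh1, Krt5, Krt14, Krt8 and Krt18 were all detected and summed to 3631 to 10340 CPM per library, while 9 acinar markers summed to at most 110.5 CPM. Sums reached at most 6.26 CPM for 7 sebaceous markers (Mc5r, Awat1 and Mogat2 at 0), 22.2 CPM for 7 adipocyte markers (Plin1, Cidec, Lep and Cfd at 0), 3.85 CPM for 6 fibroblast markers (Col3a1 at 0), 2.05 CPM for 4 endothelial markers, 18.5 CPM for 4 myoepithelial markers and 43.3 CPM for 6 immune markers. Squamous markers ranged from 445 to 4476 CPM. Interferon response genes, 25 in all, split replicates within groups. In the day 14 passage 2 groups they summed to 119, 2141 and 2014 CPM in the sham libraries and to 146, 246 and 1911 CPM in the IR libraries, so that sham replicate 1 and IR replicate 3 differed from both of their partners. Passage 1 sham was split as well: the sums were 340.3, 1940.2 and 245 CPM at day 14 and 152, 1232 and 385 CPM at day 90, where replicate 2 was the high one. Only the 2 libraries of day 14 passage 2 were left out together as an alternative, and they are meant where libraries are said to stand apart. Without them, the sham libraries left had high interferon sums (2141 and 2014 CPM) and the IR libraries low ones (146 and 246 CPM). Irradiation and interferon level therefore coincided at day 14 passage 2 in that fit. In what follows, the values of a group are given in the order of replicates 1, 2 and 3, which have no order of their own.

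In most groups the sterol transcripts differed more between replicates than the group means differed from each other. The summed level of the 21 sterol genes ran from 1513 to 3259 CPM over the 24 libraries, a ratio of 2.15, while the 8 group means lay within a ratio of 1.39. Within a group the highest library exceeded the lowest by a factor of 1.139 to 2.025, and in 6 of 8 groups this factor was above the ratio of the group means. A mean of 3 libraries varies less than a single library, so these ratios are not like for like. The fatty acid genes summed to 1323 to 2379 CPM, with group means within a ratio of 1.29 and within-group factors of 1.065 to 1.735. In bulk cultures, fewer cells of a type and less RNA per cell cannot be told apart.

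**Figure D1:**
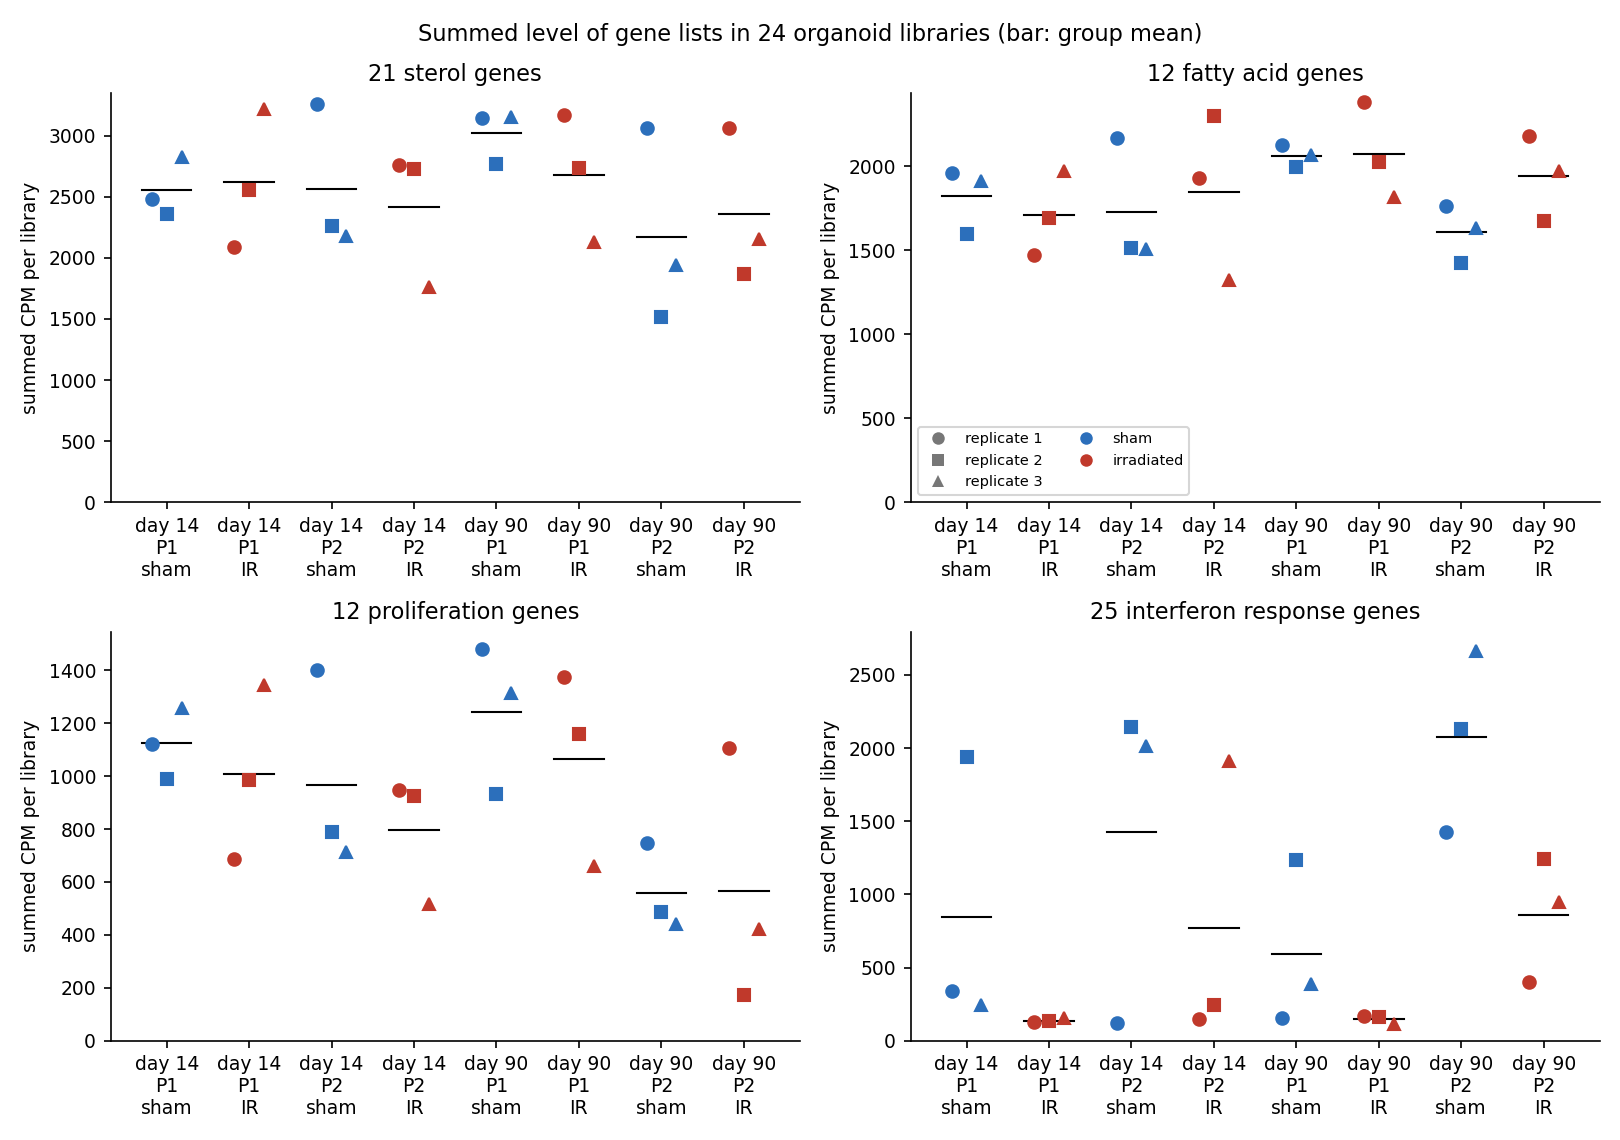
Summed CPM per library (vertical axes, linear from 0) of the 21 sterol genes, the 12 fatty acid genes, 12 proliferation genes and 25 interferon response genes, by group (horizontal axes; P1 and P2 are passages 1 and 2); points are libraries, shapes are replicates, blue is sham, red is IR and bars are group means. The sterol sum of day 90 passage 2 sham runs from 1513 to 3064 CPM within the one group, while the group means lie between 2173 and 3021 CPM.

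By group, the sterol sum was highest in day 90 passage 1 sham (3021 ± 221 CPM, SD, n = 3) and lowest in day 90 passage 2 sham (2173 ± 801). Day 90 passage 1 IR (2678 ± 523), day 14 passage 1 IR (2624 ± 569), day 14 passage 2 sham (2567 ± 600.2), day 14 passage 1 sham (2555 ± 239), day 14 passage 2 IR (2414 ± 569) and day 90 passage 2 IR (2361 ± 622) lay between. Each neighbouring pair in this order differed by less than the larger of its SDs. The fatty acid sum was highest in day 90 passage 1 IR (2074 ± 284 CPM) and day 90 passage 1 sham (2062 ± 65.2), and lowest in day 90 passage 2 sham (1608 ± 172). Of the 21 sterol genes 15 had their lowest group mean in day 90 passage 2 sham, and 15 their highest in day 90 passage 1, sham or IR. Of the 12 fatty acid genes 4 were lowest and 7 highest in those groups.

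The sterol genes went up and down together from library to library. In day 90 passage 2 sham, replicate 1 was the highest of the 3 libraries for 20 of 21 sterol genes, against 36.7% of all tested genes, and replicate 2 the lowest for 19. In day 90 passage 2 IR, replicate 1 was highest for 20 of 21 (40.3% of all genes) and replicate 2 lowest for 20. In day 14 passage 2 sham, replicate 1 was highest for 19 of 21 (38.7%). In day 14 passage 2 IR, replicate 3 was lowest for 20 of 21 (40.7%), and in day 14 passage 1 IR, replicate 3 was highest for 19 (35.6%) and replicate 1 lowest for 20. The sham groups of passage 1 showed less of this: 13 of 21 genes at day 14 and 10 of 21 at day 90 were highest in the same library. Genes measured in one library are not independent of each other, so these counts describe libraries and not conditions.

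Some other gene groups shared their highest or lowest library with the sterol genes. The library lowest in the sterol sum was also lowest in the fatty acid sum in 8 of 8 groups, and the highest was the same library in 5 of 8. For 12 proliferation genes, a list chosen after the data were seen, the lowest library was the same in 7 of 8 groups and the highest in 7 of 8. For the epithelial markers the lowest library was the same in 7 of 8 and the highest in 3 of 8. The library lowest in sterol genes was the highest in interferon response genes in 4 of 8 groups, and the library highest in sterol genes was the lowest in them in 5 of 8. Both lists had the same highest library in 2 of 8 groups and the same lowest in 2 of 8. For the squamous markers the lowest library was the same in 3 of 8 and the highest in 3 of 8. The library highest in sterol genes was the lowest in squamous markers in 4 of 8, and the reverse held in 2 of 8. The share of counts on Gm42418, a predicted gene over a ribosomal RNA repeat, was lowest in the same library as the sterol sum in 3 of 8 groups. Unrelated lists also share libraries in some groups when a group holds 3, so the smaller of these counts carry little. The part of any of these in the sterol levels was not tested.

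**Figure D2:**
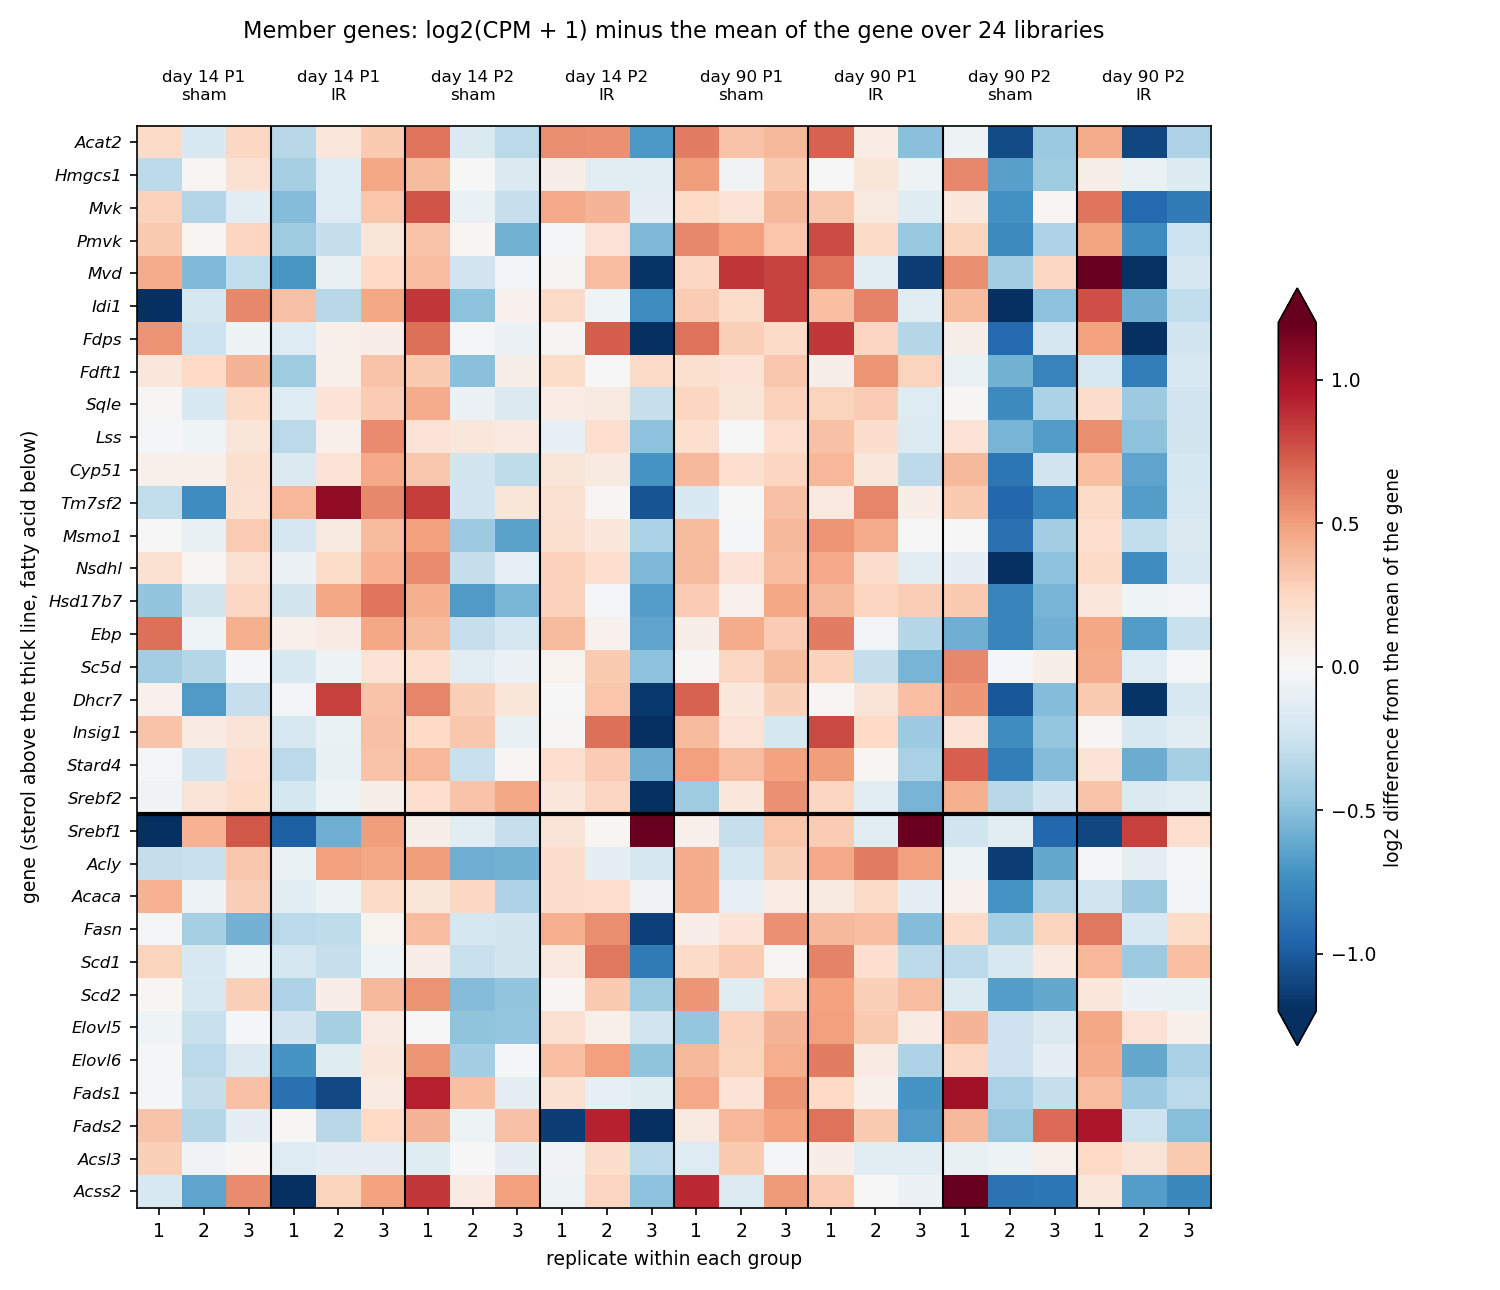
Log2(CPM + 1) of each gene minus its mean over the 24 libraries (colour, clipped at the ends of the scale), with genes in rows, sterol genes above the thick line and fatty acid genes below, and the 3 replicates of each group in columns. Single columns, such as day 14 passage 2 IR replicate 3 and day 90 passage 2 sham replicate 2, are blue over most sterol rows. Srebf1 is red in the first of these columns and near its mean in the second.

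No gene of either pathway passed the test in any of the 17 comparisons. A gene was called at an adjusted p-value under 0.05 (edgeR's quasi-likelihood test, Benjamini-Hochberg over the 10563 tested genes). DESeq2 also called 0 of 33 in each comparison. A test of any difference among the 8 groups (edgeR), added after this was seen, called 0 of 33, with 15% of all tested genes called. An unadjusted p under 0.05 was held by 2 members, Fdft1 (adjusted p = 0.126) and Acly (0.138), beside 29.9% of all tested genes.

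The first of the fixed genes is Hmgcs1, which makes HMG-CoA, the precursor of mevalonate. At day 14 its level was 482, 608 and 678 CPM in passage 1 sham, 455, 539 and 826 in passage 1 IR, 779.8, 598 and 531 in passage 2 sham, and 632, 550.1 and 548 in passage 2 IR. The day 90 values were 851, 581 and 745 CPM in passage 1 sham, 596, 661 and 574 in passage 1 IR, 894, 380.3 and 444 in passage 2 sham, and 629.8, 565 and 533 in passage 2 IR. Every sham group overlapped the IR group of its day and passage, and the lowest and the highest library of all 24 were both in day 90 passage 2 sham. Averaged over the 4 pairs of groups, the log2 difference of IR from sham was -0.08 (95% interval -0.35 to 0.18, edgeR, adjusted p = 0.724).

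Sqle, squalene epoxidase, carries out a rate-limiting step after squalene. At day 14 it stood at 159, 138 and 184 CPM in passage 1 sham, 141, 176 and 194 in passage 1 IR, 215, 149 and 139 in passage 2 sham, and 167, 169 and 129.6 in passage 2 IR. Its day 90 values were 188, 174 and 190.4 CPM in passage 1 sham, 189.7, 194 and 141 in passage 1 IR, 159, 91.8 and 120.2 in passage 2 sham, and 182, 116 and 134 in passage 2 IR. The 3 libraries of day 90 passage 2 sham all lay below the 3 of day 90 passage 1 sham, while sham and IR overlapped in all 4 pairs. The mean log2 difference of IR from sham was 0.03 (95% interval -0.19 to 0.25, edgeR, adjusted p = 0.892).

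Among the regulators, Srebf2 encodes SREBP-2. It was at 128, 146 and 153 CPM in day 14 passage 1 sham and 113, 126 and 137 in IR, and at 151, 167 and 181 in day 14 passage 2 sham and 145, 157 and 55.0 in IR. Day 90 values were 97.0, 144 and 192 CPM in passage 1 sham and 157, 119 and 89.1 in IR, and at 176, 104 and 112 in passage 2 sham and 167, 117 and 119 in IR. Its lowest library, day 14 passage 2 IR replicate 3, is the library that was lowest in its group for 20 of 21 sterol genes. The mean log2 difference of IR from sham was -0.22 (95% interval -0.53 to 0.09, edgeR, adjusted p = 0.373).

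Insig1, the sterol sensor partner that retains SREBP, was low throughout. It measured 27.0, 22.7 and 23.6 CPM in day 14 passage 1 sham, 18.3, 19.8 and 27.2 in IR, 25, 26.6 and 19.8 in day 14 passage 2 sham, and 21.2, 33.8 and 7.24 in IR. Day 90 gave 27.6, 23.9 and 18.1 CPM in passage 1 sham, 37.1, 25.1 and 15.3 in IR, 23.7, 12.2 and 15 in passage 2 sham, and 21.4, 18.4 and 19.1 in IR. All 4 pairs of sham and IR groups overlapped. Its mean log2 difference was -0.0006, with a 95% interval of -0.39 to 0.39 (edgeR, adjusted p = 0.999).

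Srebf1 encodes SREBP-1. Its level was 6.75, 25.6 and 32.3 CPM in day 14 passage 1 sham, 9.14, 12.3 and 27.2 in IR, 19.9, 17.1 and 15.5 in day 14 passage 2 sham, and 21.2, 19.2 and 49.6 in IR. The values of day 90 were 19.7, 15.5 and 24.1 CPM in passage 1 sham, 23.7, 17.2 and 44.5 in IR, 15.9, 17.3 and 9.39 in passage 2 sham, and 8.33, 34.3 and 21.9 in IR. The 2 highest values, 49.6 and 44.5 CPM, were in the libraries with the lowest sterol sums of their groups, 1758 and 2129.8 CPM, whereas in day 14 passage 1 IR, day 14 passage 2 sham and day 90 passage 1 sham its libraries lay in the same order as the sterol sums. Its mean log2 difference of IR from sham was 0.37 (95% interval -0.16 to 0.91, edgeR, adjusted p = 0.388).

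Fasn, the fatty acid synthase, measured 105, 80.3 and 71.3 CPM in day 14 passage 1 sham, 84.6, 86.0 and 109 in IR, 138, 91.5 and 91.3 in day 14 passage 2 sham, and 144, 157 and 48.5 in IR. At day 90 it measured 112, 119 and 156 CPM in passage 1 sham, 139, 137 and 73.8 in IR, 125, 80.3 and 128 in passage 2 sham, and 166, 93.6 and 124 in IR. Sham and IR overlapped at each day and passage, and day 14 passage 2 IR held both the lowest library of all and one of the highest. The mean log2 difference was 0.08 (95% interval -0.26 to 0.42, edgeR, adjusted p = 0.818).

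Scd1, a desaturase of stearate, was at 438, 321 and 350.1 CPM in day 14 passage 1 sham, 313, 300.5 and 349.8 in IR, 384, 302 and 312 in day 14 passage 2 sham, and 395, 564 and 202 in IR. Levels at day 90 were 426, 449.9 and 370.2 CPM in passage 1 sham, 549.6, 418 and 292 in IR, 291, 318 and 395 in passage 2 sham, and 479, 268 and 468 in IR. Its sham and IR groups overlapped in all 4 pairs. The mean log2 difference was 0.08 (95% interval -0.21 to 0.36, edgeR, adjusted p = 0.776).

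The main contrast asks what irradiating the gland did to organoids later grown from it. Over the 4 pairs of groups together, 0 of 33 genes were called, beside 11.0% of all tested genes. The median log2 difference was -0.0006 for the 21 sterol genes and 0.03 for the 12 fatty acid genes, against 0.003 for all tested genes. Every one of the 33 intervals lay inside a 2-fold change in either direction, with a median half-width of 0.31 on the log2 scale. The mean of the 4 differences gave 2 genes with an unadjusted p under 0.05, 1 in each direction. Of the 10563 tested genes, 1415 were higher and 1316 lower at that threshold. The 2 members and the next by p-value follow.

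Fads1, a front-end desaturase that makes polyunsaturated fatty acids, was at 38.5, 32 and 50.3 CPM in day 14 passage 1 sham and 20.7, 18.0 and 42.2 in IR. It was at 75.6, 50.8 and 36.2 CPM in day 14 passage 2 sham and 44.7, 36.5 and 35.5 in IR. At day 90 it was at 54.2, 44.0 and 57.2 CPM in passage 1 sham, 46.4, 41 and 23.7 in IR, 80.0, 29.8 and 32.3 in passage 2 sham, and 50.9, 28.8 and 31.2 in IR. The groups overlapped in each pair. Its mean log2 difference of IR from sham was -0.46 (SE 0.18, edgeR, adjusted p = 0.114).

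Acly, which splits citrate to give cytosolic acetyl-CoA for both pathways, was at 70.9, 71.6 and 108 CPM in day 14 passage 1 sham and 81.7, 122 and 120.0 in IR. It was at 123, 57.3 and 58.1 CPM in day 14 passage 2 sham and 100.4, 79.6 and 75.3 in IR. Levels at day 90 were 118, 74.6 and 106 CPM in passage 1 sham, 119, 133 and 122 in IR, 83.0, 38.9 and 56.3 in passage 2 sham, and 85.1, 80.2 and 85.2 in IR. Only the day 90 passage 1 groups did not overlap. Its mean log2 difference was 0.32 (SE 0.14, edgeR, adjusted p = 0.144). Acss2, which makes acetyl-CoA from acetate, came next by p-value: its mean log2 difference was -0.41 (95% interval -0.96 to 0.14), over library values from 4.81 to 31.5 CPM. Leaving out a single library made each of Fads1 and Acly pass the test. Without day 14 passage 1 IR replicate 3 the difference of Fads1 was -0.59 (edgeR, adjusted p = 0.0428), with 10.5% of all tested genes called. Without day 14 passage 2 sham replicate 1 that of Acly was 0.43 (edgeR, adjusted p = 0.022), with 12.4% called.

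**Figure D3:**
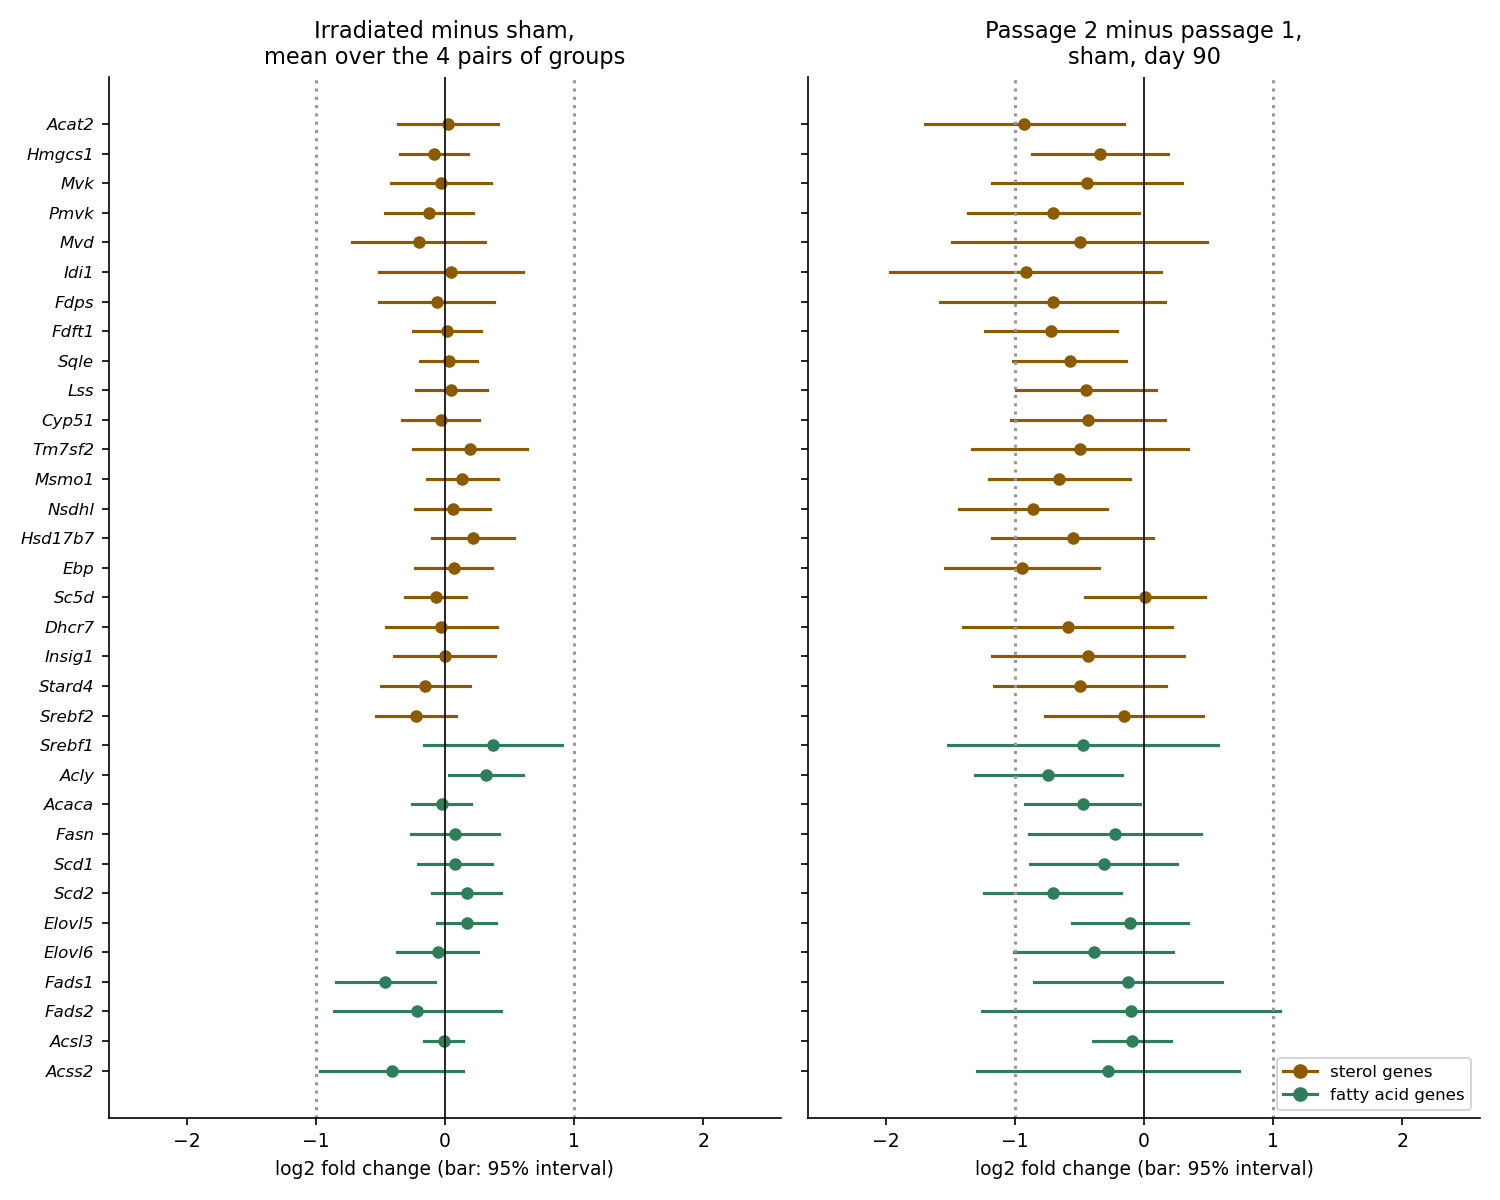
Log2 fold changes (horizontal axes, points) with 95% intervals (bars) of the 33 genes (rows; brown sterol, green fatty acid) for IR minus sham averaged over the 4 pairs of groups (left) and for passage 2 minus passage 1 in the day 90 sham groups (right); dotted lines mark a 2-fold change. On the left all 33 intervals lie inside the dotted lines, and on the right 32 of 33 points lie left of 0.

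Taken by day and passage, irradiation gave 0 of 33 calls in each pair of groups. The share of all tested genes called was 0.341% at day 14 passage 1, 0.0189% at day 14 passage 2, 0.0473% at day 90 passage 1 and 4.92% at day 90 passage 2. Unadjusted p-values under 0.05 numbered 1, 0, 0 and 0. These single pairs were less precise: 22, 22, 23 and 22 of the 33 intervals lay within a 2-fold change. The median log2 difference of the sterol genes was 0.03, -0.10, -0.17 and 0.15 in this order, and of the fatty acid genes -0.05, 0.09, -0.10 and 0.21, with all tested genes at -0.01, 0.01, -0.0003 and 0.01. Leaving out 1 library at a time turned the sign of the sterol median in each of the 4 pairs, with ranges of -0.17 to 0.20, -0.24 to 0.16, -0.26 to 0.03 and -0.15 to 0.48. Without the 2 libraries of day 14 passage 2 that stood apart, the medians there were 0.34 for sterol and 0.46 for fatty acid genes. In that fit irradiation coincided with interferon level, as given above. No direction is therefore read from these medians.

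At day 14 passage 1 the smallest p-value belonged to Tm7sf2, a sterol reductase acting after lanosterol. Its levels were 6.75, 4.66 and 9.75 CPM in sham and 11.5, 18.9 and 13.1 in IR, with no overlap, and rested on 8 to 43 counts per library over the series. The log2 difference was 0.98 (SE 0.43, edgeR, adjusted p = 0.406). Non-overlap of all 3 IR libraries above sham was seen for 8.84% of all tested genes and below for 8.40%, and for 1 member each, Tm7sf2 and Acsl3. Dhcr7, the reductase of the last step to cholesterol, was at 18.9, 11.1 and 14.9 CPM in sham and 17.8, 33.1 and 23.4 in IR (log2 difference 0.70, SE 0.43). Acsl3, a ligase that activates fatty acids for lipid droplets, was at 578, 460.3 and 481 CPM in sham and 427, 439 and 437 in IR (log2 difference -0.22, SE 0.15).

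At day 14 passage 2 no member separated the groups in either direction (6.06% of all genes above, 5.49% below). The smallest p-values were those of Srebf2 (log2 difference -0.50, SE 0.30, edgeR, adjusted p = 0.802), Srebf1 (0.82, SE 0.51) and Tm7sf2 (-0.62, SE 0.43). Tm7sf2 was at 15.9, 7.09 and 9.47 CPM in sham and 9.75, 8.63 and 3.62 in IR. All 3 differences drew on the libraries that stood apart. With those left out, so that the interferon sums also separated sham from IR, the difference of Tm7sf2 was 0.14.

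At day 90 passage 1 the smallest p-values were those of Sc5d, Mvd and Fads1. Sc5d, a sterol desaturase, was at 163, 192 and 211 CPM in sham and 195, 132 and 109 in IR (log2 difference -0.37, SE 0.23, edgeR, adjusted p = 0.51). Mvd, which decarboxylates mevalonate diphosphate, was at 64.9, 99.6 and 96.2 CPM in sham and 86.1, 49.6 and 24.4 in IR (-0.69, SE 0.49). Both sets of values overlapped. Acly was the 1 member wholly above sham here (9.21% of all genes, with 0.0284% of all genes called higher), and 0 lay wholly below (10.3%).

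The share of all genes called at day 90 passage 2, 4.92%, ranged from 1.27% to 11% over single libraries left out (lowest without IR replicate 3, highest without IR replicate 1) and was 0.835% with only the compared groups fitted, with 0 of 33 members called in each. Ebp had the smallest p-value among the 33 in this pair. Ebp, a sterol isomerase, was at 100.0, 86.3 and 101 CPM in sham and 208, 94.4 and 125 in IR, and the groups overlapped (log2 difference 0.58, SE 0.29, edgeR, adjusted p = 0.289). Acsl3 was at 446, 456 and 495 CPM in sham and 560.5, 529 and 590.1 in IR (0.27, SE 0.14). Scd2, a desaturase, was at 432, 306 and 316 CPM in sham and 530.4, 460.0 and 458 in IR (0.46, SE 0.26). Acsl3 and Scd2 were the 2 members wholly above sham, beside 10.9% of all tested genes, and 0 members were wholly below (9.64%, with 1.95% of all genes called lower).

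The widest median shift of the sterol genes over the 17 comparisons was between passages in the sham cultures of day 90, and it too held no call (0 of 33, edgeR; 1.36% of all tested genes were called, 0.918% as lower). Of the 33 genes, 32 had a lower mean in passage 2, beside 5603 of the 10563 tested genes. The median log2 difference was -0.55 for sterol genes and -0.30 for fatty acid genes, against -0.02 for all tested genes. Unadjusted p-values under 0.05 numbered 10, all lower in passage 2: 7 sterol and 3 fatty acid genes. Of the 10563 tested genes, 850 were lower and 624 higher at the same threshold. The smallest adjusted p was 0.115. All 3 passage 2 libraries lay below all 3 of passage 1 for 10 members, 8 sterol and 2 fatty acid, which is 10 of 33 beside 11.9% of all tested genes, and all 3 lay above for 0 (8.99%). Passage 2 organoids are grown on from passage 1, so the groups need not be independent.

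Ebp was at 159, 206 and 186 CPM in passage 1 sham and 100.0, 86.3 and 101 in passage 2 sham, without overlap (log2 difference -0.94, SE 0.29, edgeR, adjusted p = 0.115). Its call changed with the fit: the adjusted p was 0.0188 with only the compared groups and 0.0483 with a replicate block (edgeR). With no filter on low counts it was 0.000335 (edgeR), where 6 members were called beside 3.09% of all genes, and in DESeq2 it was 0.084. Nsdhl, which removes methyl groups from sterols, was at 121, 106 and 121 CPM in passage 1 and 86.0, 39.5 and 66.1 in passage 2, also without overlap (-0.86, SE 0.28, adjusted p = 0.139). Fdft1, squalene synthase, was at 19.7, 19.4 and 21.7 CPM and then 16.2, 11.2 and 9.39 (-0.72, SE 0.25, adjusted p = 0.172). Its 3 passage 2 libraries were again all lower. The difference of Sqle, whose libraries are given above, was -0.58 (SE 0.21, adjusted p = 0.202). Of the fatty acid genes, Scd2 differed by -0.71 (SE 0.26) and Acly by -0.74 (SE 0.28), with adjusted p-values of 0.199 and 0.209. The rest of the 10 were Msmo1, Acat2, Acaca and Pmvk, with log2 differences from -0.93 to -0.48.

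The size of this shift depended on single libraries of passage 2. Without replicate 2, the lowest for 19 of 21 sterol genes, the sterol median was -0.32. Without replicate 1, the highest for 20 of 21, it was -0.92. No call was gained in either case. Between the same groups the mean sum of the 12 proliferation genes went from 1242 to 559 CPM, without overlap. That of the 25 interferon response genes went from 589.97 to 2074 CPM, also without overlap. The mean sum of the squamous markers went from 1739 to 3216 CPM, with overlap. Krt8, a keratin of luminal cells, fell by 1.503 on the log2 scale (edgeR, adjusted p = 0.000529). Of the 6 epithelial markers 2 were called lower there, Krt8 among them, and 0 higher. The part of all these genes in the sterol levels was not tested.

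In the other passage comparisons the sterol median stayed nearer to 0. In sham at day 14, 0 of 33 were called (1.18% of all genes, 0.966% as lower), 0 had an unadjusted p under 0.05, and the medians were 0.08 for sterol and -0.10 for fatty acid genes. Dhcr7 had the smallest p-value, at 18.9, 11.1 and 14.9 CPM in passage 1 and 27.9, 22.4 and 20.2 in passage 2, and was the 1 member wholly higher (8.30% of all genes, and 8.66% wholly lower; log2 difference 0.65, SE 0.42, edgeR, adjusted p = 0.638). Tm7sf2 (0.60, SE 0.44) and Ebp (-0.38, SE 0.29) followed, with overlapping groups.

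In IR cultures at day 14, 0 of 33 were called (1.38% of all genes, 0.398% as higher) and 1 had an unadjusted p under 0.05. This was Tm7sf2, at 11.5, 18.9 and 13.1 CPM in passage 1 and 9.75, 8.63 and 3.62 in passage 2 (log2 difference -1.01, SE 0.43, edgeR, adjusted p = 0.285), the 1 member wholly lower (9.39%), with 0 wholly higher (7.86%). In IR cultures at day 90, 0 of 33 and 0% of all tested genes were called. There 27 of 33 genes had a lower mean in passage 2, beside 5310 of 10563 tested genes (sterol median -0.30, fatty acid median -0.17, all tested genes -0.002). Fdft1 was at 18.0, 25.1 and 20.9 CPM in passage 1 and 14.9, 9.19 and 15 in passage 2 (-0.69, SE 0.26, adjusted p = 0.357). It and Acly (-0.58, SE 0.28, adjusted p = 0.487) had unadjusted p-values under 0.05, and 4 members lay wholly lower (6.92% of all genes) and 1, Acsl3, wholly higher (7.91%).

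Between days, sham passage 1 cultures had higher means at day 90 for 27 of 33 genes, beside 5471 of 10563 tested genes. The sterol median was 0.29 and the fatty acid median 0.24, against 0.01 for all tested genes, with 0 of 33 and 0% of all genes called and 1 unadjusted p under 0.05. Scaled by total counts without TMM factors the median of all genes was 0.24 and the sterol median 0.51. Sc5d was at 121, 127 and 159 CPM at day 14 and 163, 192 and 211 at day 90, without overlap (log2 difference 0.48, SE 0.23, edgeR, adjusted p = 0.511). Fasn differed by 0.60 (SE 0.33). Elovl6, which lengthens palmitate, was at 109, 88.5 and 98.0 CPM at day 14 and 145, 134 and 151 at day 90 (0.54, SE 0.30). In all, 8 members were wholly higher at day 90 (8.79% of all genes) and 0 wholly lower (6.72%).

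The sham passage 2 cultures had lower means at day 90 for 26 of 33 genes, beside 5445 of 10563 tested genes. Of the 33, 0 were called (0.426% of all genes) and 2 had an unadjusted p under 0.05. The sterol median was -0.44 and the fatty acid median -0.15, against -0.01 for all genes. Scaled by total counts the sterol median was -0.20, the fatty acid median 0.10 and that of all genes 0.23, and with the Gm42418 covariate the sterol median was -0.25. Without day 14 passage 2 sham replicate 1 it was -0.22, as it was without day 90 passage 2 sham replicate 2. Nsdhl went from 139, 76.2 and 87.0 CPM at day 14 to 86.0, 39.5 and 66.1 at day 90 (log2 difference -0.65, SE 0.28, edgeR, adjusted p = 0.30), with overlap. Ebp, at 196, 124 and 131 CPM and then 100.0, 86.3 and 101, was the 1 member wholly lower (11.3% of all genes; -0.65, SE 0.29, adjusted p = 0.321). Sqle differed by -0.44 (SE 0.21, adjusted p = 0.365). This comparison shares the day 90 passage 2 sham libraries with the passage comparison above.

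The same comparison was made in the IR cultures. At passage 1, 0 of 33 were called (0.170% of all genes) and 1 had an unadjusted p under 0.05. Elovl5, an elongase of polyunsaturated fatty acids, was at 57.2, 51.0 and 72.2 CPM at day 14 and 95.4, 83.9 and 72.4 at day 90, the 1 member wholly higher (6.23%; log2 difference 0.47, SE 0.23, edgeR, adjusted p = 0.73). All 12 fatty acid genes had a higher mean at day 90, beside 5544 of 10563 tested genes. The fatty acid median was 0.32, against 0.04 for sterol genes and 0.02 for all tested genes. At passage 2, 0 of 33 were called (0.435% of all genes). Fdft1 had the only unadjusted p under 0.05: it was at 20.1, 17.3 and 20.3 CPM at day 14 and 14.9, 9.19 and 15 at day 90 (-0.56, SE 0.26, adjusted p = 0.334) and was the 1 member wholly lower (7.09%). Acaca, the carboxylase that makes malonyl-CoA, was at 33.3, 33.2 and 27.9 CPM and then 24.1, 20.9 and 28.0 (-0.36, SE 0.22).

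Whether irradiation acted differently by day or passage was tested by 4 interactions, which called 0 of 33 genes. Of all tested genes, 0.0189% were called for IR with day in passage 1, 0.00947% in passage 2, and 0% for IR with passage at day 14 and at day 90. Unadjusted p-values under 0.05 numbered 0, 0, 2 and 0. The 2 were Tm7sf2 (log2 difference of differences -1.60, SE 0.61, edgeR, adjusted p = 0.572) and Dhcr7 (-1.27, SE 0.60, adjusted p = 0.713), for IR with passage at day 14. Both genes were higher in IR than sham on average at passage 1 and lower at passage 2. The interaction with passage at day 90 had a positive estimate for 32 of 33 genes, beside 5781 of 10563 tested genes. Its sterol median was 0.25 against 0.04 for all tested genes. It contains the day 90 passage 2 sham libraries, and leaving out single libraries moved the sterol median between -0.06 and 0.63. With a median half-width of 0.87 to 0.89, the 4 interactions left 8 to 11 of 33 intervals within a 2-fold change. Sc5d had the smallest p-value for IR with day in passage 1 (-0.60, SE 0.32, adjusted p = 0.672). Lss, lanosterol synthase, had it in passage 2 (0.59, SE 0.37, adjusted p = 0.951) and Acsl3 for IR with passage at day 90 (0.39, SE 0.20, adjusted p = 0.9999).

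The levels of the other members are given by their range. Among sterol genes not written out, Cyp51, a demethylase of lanosterol, ran from 202 to 506 CPM over the libraries, Msmo1 from 131 to 351, Acat2 from 51.0 to 181, Fdps from 21 to 105, Stard4, a sterol transfer protein, from 34.7 to 103, and Hsd17b7 from 45.0 to 124. Mvk and Pmvk, the kinases of mevalonate, ran from 11.7 to 39.8 and from 23.4 to 70.6 CPM. Idi1, the isomerase of isopentenyl diphosphate, rested on 3 to 45 counts per library and ran from 1.82 to 11.9 CPM. Fads2 rested on 1 to 44 counts (0.362 to 13.1 CPM), so small differences in these genes were not detectable at this depth. For 14 of 21 sterol genes and 6 of 12 fatty acid genes the typical spread within a group, as the median ratio of highest to lowest library, was above the ratio of the highest to the lowest group mean. Here too single libraries are set against means, which vary less. Near copies held few reads over the 24 libraries: 3 counts for Acat3, 12 for Idi2, 70 for Scd3 and 30 for Scd4.

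Lists of related lipid genes outside the 33 were tested in the same fit, and some of their genes were called. Of 18 tested genes of other sterol roles, 2 were called higher and 1 lower over the mean of the 4 irradiation differences. Of 17 tested genes of other fatty acid roles, 4 were higher and 0 lower, and of 9 tested genes of fatty acid oxidation, 0 were higher and 1 lower, beside 6.09% of all tested genes called higher and 4.91% lower. The medians of these lists were 0.07, -0.02 and -0.03. Abcg1, an exporter of cholesterol, was at 3.38, 5.82 and 6.67 CPM in day 14 passage 1 sham and 21.6, 15.1 and 6.10 in IR, and at 2.27, 2.95 and 4.74 in passage 2 sham and 9.75, 3.98 and 9.41 in IR. At day 90 it was at 5.64, 13 and 8.54 CPM in passage 1 sham and 13.4, 28.4 and 32.7 in IR, and at 3, 5.17 and 1.88 in passage 2 sham and 3.57, 35.9 and 29.2 in IR. Only the day 90 passage 1 groups did not overlap. Abcg1 rose with irradiation over the 4 pairs by 1.67 on the log2 scale (SE 0.33, edgeR, adjusted p = 0.00236). In passage 1, sham and IR, its libraries lay in the same order as the sum of the 6 immune markers. That sum was 43.3, 16.1 and 14.5 CPM in day 14 passage 1 IR and 3.09, 13.9 and 31.3 in day 90 passage 1 IR. In day 90 passage 2 IR, where Abcg1 was highest, it was only 0.298, 1.67 and 0.406 CPM. The part of immune cells in the Abcg1 levels was not tested. Abca1, another exporter of cholesterol, is named after its values were seen and was not called over the 4 pairs. At day 14 passage 1 it was at 27.0, 26.2 and 27.2 CPM in sham and 9.62, 9.45 and 13.1 in IR, lower without overlap. In the other pairs its groups overlapped.

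Soat1, which esterifies cholesterol for storage, was at 33.8, 32 and 44.1 CPM in day 14 passage 1 sham and 39.4, 38.7 and 37.5 in IR, and at 21.6, 21.3 and 17.7 in passage 2 sham and 32.1, 29.9 and 35.5 in IR. At day 90 it was at 31.6, 31.0 and 34.1 CPM in passage 1 sham and 52.6, 66.7 and 45.2 in IR, and at 21, 27.1 and 31.9 in passage 2 sham and 33.9, 53.9 and 52.3 in IR. The groups did not overlap in 3 of 4 pairs, and Soat1 rose by 0.58 (SE 0.10, adjusted p = 0.000883). Npc2, which carries cholesterol out of lysosomes, fell by 0.38 (SE 0.10, adjusted p = 0.018).

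Elovl7, an elongase of long saturated fatty acids, rose over the 4 pairs by 0.69 (SE 0.13, edgeR, adjusted p = 0.00143). It was at 91.8, 75.1 and 86.2 CPM in day 14 passage 1 sham and 207, 194 and 107 in IR, and at 45.5, 59.9 and 57.5 in day 90 passage 2 sham and 68.5, 127 and 131 in IR, without overlap in either. The groups of day 14 passage 2 overlapped, at 41.5, 57.3 and 47.8 CPM in sham and 56.8, 56.4 and 52.9 in IR, while those of day 90 passage 1, at 95.3, 97.5 and 93.1 in sham and 106, 129 and 199.7 in IR, did not. Acsl5, which activates fatty acids, rose by 0.56 (SE 0.11, adjusted p = 0.00185) and Acsl1 by 0.47 (SE 0.13, adjusted p = 0.0195). Me1, malic enzyme, a source of NADPH for synthesis, rose by 0.48 (SE 0.13, adjusted p = 0.0233) and is named after its values were seen. Acadl, an acyl-CoA dehydrogenase of fatty acid oxidation, fell by 0.49 (SE 0.15, adjusted p = 0.0366). With a covariate for Gm42418 (its share of each library), Acsl1, Me1, Npc2 and Acadl were no longer called. Acadl was also lost on leaving out any of 14 single libraries, and Me1 on leaving out day 14 passage 1 IR replicate 2 or day 14 passage 2 sham replicate 3. Of the 6 epithelial markers, Krt8 rose with irradiation by 1.12 (SE 0.10, edgeR, adjusted p = 1.99e-06) and Krt18 by 0.95 (SE 0.11, adjusted p = 4.76e-05) over the 4 pairs. Of the same markers 1 was called lower, and 3 of the 6 had a negative difference (median of the list -0.07). The part of these markers in the lipid gene differences was not tested.

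**Figure D4:**
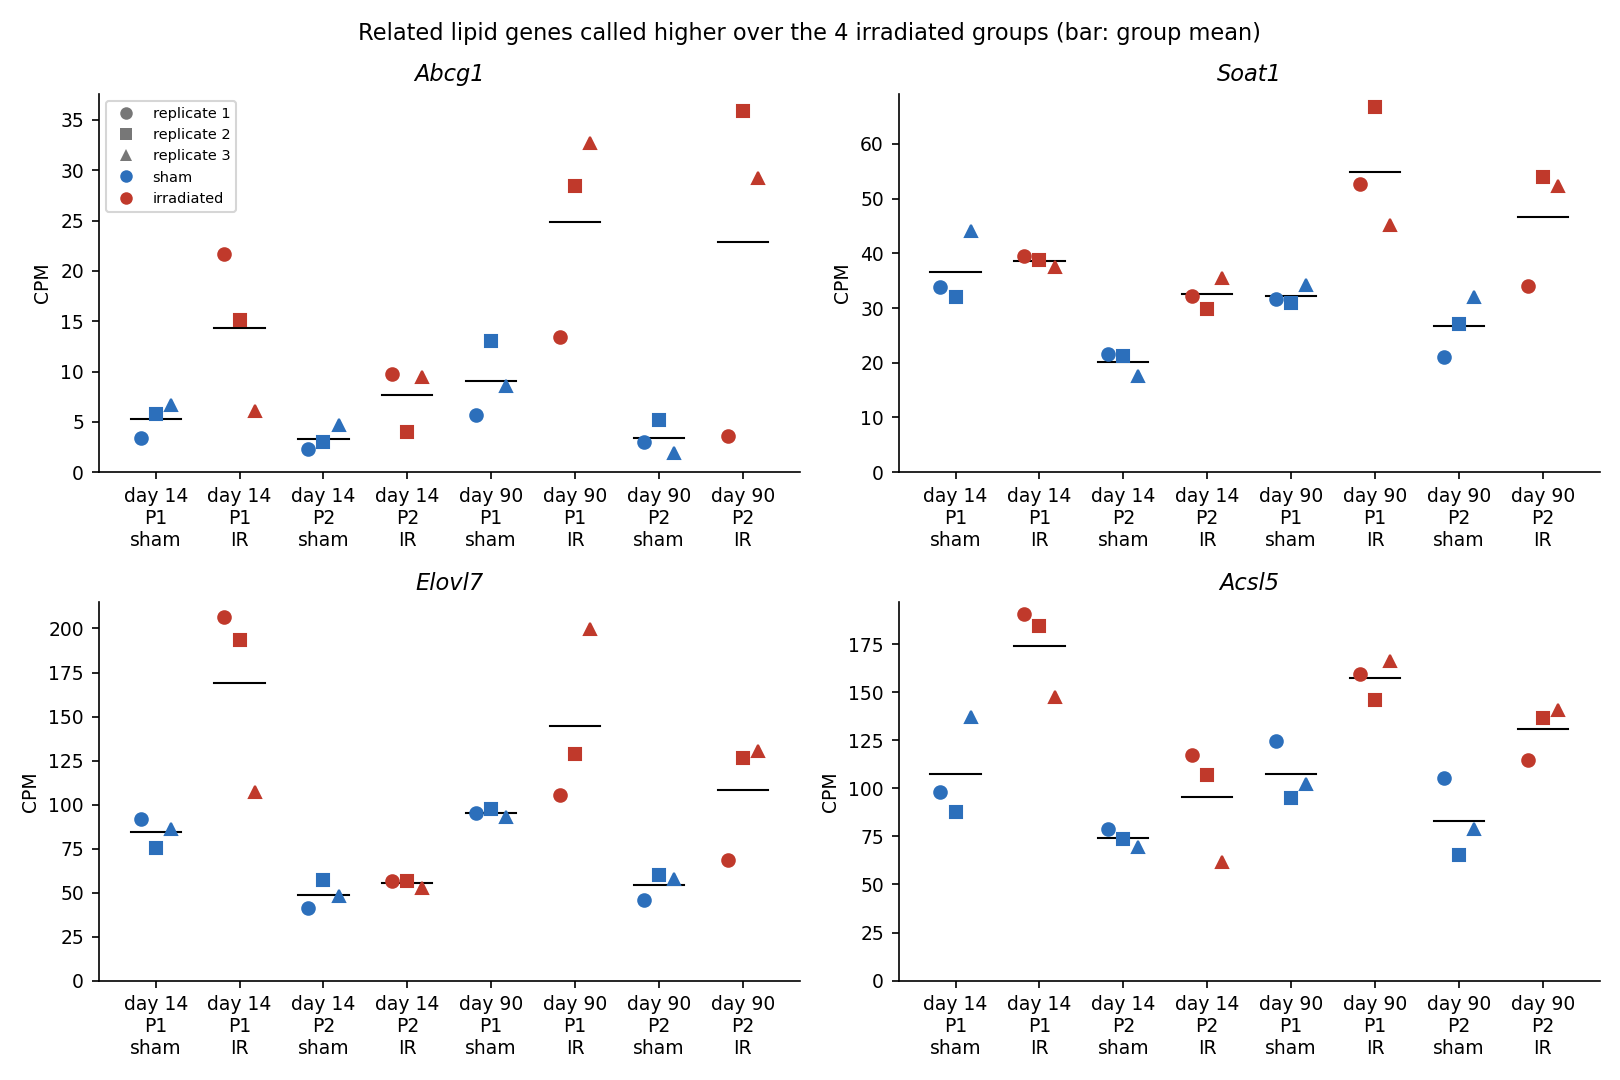
CPM per library (vertical axes, linear from 0) of Abcg1, Soat1, Elovl7 and Acsl5 by group (horizontal axes; P1 and P2 are passages 1 and 2); points are libraries, shapes are replicates, blue is sham, red is IR and bars are group means. The mean of each IR group is above that of its sham group in all 4 genes, and in day 90 passage 2 IR replicate 1 is the lowest of the 3 in each.

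By single pair, these lists gave calls at day 90 passage 2 only (2.97% of all genes called higher there): Abcg1 (log2 difference 2.70, SE 0.62, edgeR, adjusted p = 0.0129), Soat1 (0.81, SE 0.19, adjusted p = 0.0168) and Elovl7 (1.00, SE 0.25, adjusted p = 0.0216) rose. Each of the 3 lost its call when sham replicate 1 or either of IR replicates 2 and 3 was left out, with the Gm42418 covariate, or with only the compared groups fitted, and Abcg1 and Elovl7 also without sham replicate 3. Between those groups the mean sum of the squamous markers was 3216 CPM in sham and 655 CPM in IR, and that of the interferon response genes 2074 and 862 CPM, whose part was not tested. Differences of irradiation between pairs were covered by the interactions above, which called none of these genes. Between passages, Soat1 fell by 0.87 in sham at day 14 (SE 0.21, adjusted p = 0.0444), a call that was lost on leaving out any 1 of the 6 libraries. In IR cultures at day 14 Elovl7 fell by 1.61 (SE 0.26, adjusted p = 0.00355) and Acsl5 by 0.87 (SE 0.21, adjusted p = 0.0418). The Acsl5 call was lost without IR passage 1 replicate 1 or 2 or passage 2 replicate 2 or 3. In sham at day 90 Acadl rose by 1.21 (SE 0.30, adjusted p = 0.0436), from 249, 563 and 329 CPM in passage 1 to 709, 886 and 1044 in passage 2. That call was lost without any 1 of 5 of the 6 libraries.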

How the data were processed

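RNA was measured in 24 organoid libraries made with a 3′ end kit, per the labels' protocols. The authors deposited read counts per gene for each library, not normalized, and reads were demultiplexed with bcl2fastq and the build was GRCm39, per the submitters' processing notes. The labels leave the aligner, counter, annotation and strandedness of counting unstated (not given in the sources used here). In each file 5 lines naming no gene were left out (reads outside genes, 11.5% to 26.5%, and ambiguous reads, 0.259% to 0.451%). Symbols came by gene ID from an annotation of GRCm38, taken only as a source of names (47224 of 47643 IDs matched, with 0.01% of counts on the others).

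Counts of all 24 libraries were fitted together in edgeR 4.0.16 (R 4.3.3, limma 3.58.1) with TMM scaling, its filter on low counts over the 8 groups and the quasi-likelihood test. There were 17 contrasts, and p-values were adjusted by Benjamini-Hochberg over all tested genes. SE is the log2 fold change divided by the square root of F, and 95% intervals use the t distribution of the fit. DESeq2 1.42.0 was an alternative, with other scalings, filters, a Gm42418 covariate, a replicate block, the compared groups alone and each library left out. The scripts were tested on simulated counts. Written out were the 3 members of smallest p in each comparison and 7 set genes, and of each related list at most 3 called genes. The members and lists were chosen with earlier results of these data known, and the test over all 8 groups and the proliferation and interferon lists were added after seeing the data. No pair of libraries within a group agreed within sampling noise (chi-square per degree of freedom 2.2 to 29.5). No comparison had all 3 correlations of same-numbered libraries above 0.1, so replicate numbers were not taken to pair libraries. Replicate numbers are those of the sample titles; for some day 90 IR libraries the deposited files carry another number, which would change the block and these correlations there. Counts limit precision: intervals cover the spread between libraries of one group.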

Additional observations from a re-analysis of the deposited data

How the results depend on the processing

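The number of genes called among the 33 stayed at 0 in the 17 comparisons under DESeq2, median-of-ratios factors, total counts, a stricter filter, the Gm42418 covariate and removal of ribosomal genes. With no filter on low counts (22785 genes) it was 1 for irradiation at day 90 passage 1 and 1 for day in sham passage 1 (Mvd in both). For the mean irradiation difference it was 2 (Acly and Fads1), and for passage in sham at day 90 it was 6 (Acat2, Msmo1, Nsdhl, Ebp, Acly and Scd2). The shares of all genes called there were 2.04%, 0.979%, 7.21% and 3.09% in this order. Without the 2 libraries that stand apart the number among the 33 was 2 for the mean irradiation difference (Acly and Scd2), beside 14.2% of all tested genes. In that fit the interferon sums also separated sham from IR at day 14 passage 2. The number ranged from 0 to 1 over single libraries left out. With only the compared groups fitted the number was 1 for passage in sham at day 90 (Ebp, edgeR, adjusted p = 0.0188), beside 1.54% of all tested genes. The cause was not tested.

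The replicate numbers share only a label. With the replicate block, 1 gene was called for passage in sham at day 90 (Ebp, edgeR, adjusted p = 0.0483), beside 1.69% of all tested genes, and 0 in the other comparisons. No paired reading is taken from it.

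Among values of named genes 2 changed direction: Tm7sf2 for irradiation at day 14 passage 2 was 0.14 without the libraries that stand apart, against -0.62, and Mvd for IR with passage at day 90 was -0.12 without day 90 passage 2 IR replicate 1, against 0.84, and ranged up to 1.39 over single libraries left out. In 61 cases a named call was lost and in 10 one was gained, while 1211 kept direction and side of the threshold. Scaling by total counts moved the median of all genes by up to 0.24 (log2). With 3 libraries a group, the 95% intervals of single pairs had a median half-width of 0.615 to 0.638 (log2) over the 33 genes for irradiation.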
